A study of Homo sapiens with 9 samples.

Results

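The mitotic kinesins described here are 10 genes taken by name: KIF11, KIF15, CENPE, KIF18A, KIF2C, KIF4A, KIF14, KIF20A, KIF20B and KIF23. The rule takes them by symbol and uses no measured value, although earlier results of these data were known when they were chosen. All 10 had a row of their own among the 61487 genes of the deposited count table, and all 10 passed the filter on low counts that left 14630 genes for testing.

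OVCAR4 is an established human cell line labelled as high-grade serous ovarian cancer, and RNA was sequenced from it in 3 groups of 3 libraries. Naive cells and Pt-resistant cells received DMSO, the solvent. The third group was Pt-resistant cells given EPZ015666 at 5 µM for 5 days, a small molecule that blocks PRMT5, the enzyme that dimethylates arginines symmetrically. The labels give the genotype of all 9 libraries as WT. By the study's methods the Pt-resistant cells are 1 derivative of OVCAR4 obtained under continuous cisplatin, so resistance and any other difference between the 2 cultures cannot be told apart. Replicates were separate wells of a plate, so every p-value speaks of well-to-well spread, which may be technical. No naive cells with the inhibitor were analysed here, and whether the response to it differs between naive and Pt-resistant cells was not tested.

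Library totals ran from 14320929 to 19114811 counts, and log2 CPM (counts scaled to the size of the library) correlated across genes at 0.9912 to 0.9933 within a group. Of 9 markers of serous epithelial carcinoma, 8 passed the filter, among them PAX8 at 115 to 144 CPM and KRT7 at 1638 to 2333 CPM as group means, while WT1 stood at 0.223 to 0.318 CPM. Of the 8 tested, 5 fell and 1 (KRT7) rose in Pt-resistant cells, where 29.4% of all tested genes were lower and 29.8% higher. With the inhibitor 5 fell and 2 (PAX8 and KRT18) rose, where 30.5% of all tested genes were lower and 31.9% higher. CDH1 had log2 fold changes of -1.17 and then -0.55, and EPCAM of -0.65 and then -0.42. The part of these changes in the kinesin levels was not tested. Of 12 markers of blood, vessel, stromal and liver cells, 7 passed the filter. With the inhibitor 4 of the 7 were higher, namely the leukocyte marker PTPRC (from 2 to 53 counts summed over the 3 libraries), the monocyte marker CD14 (0.268 to 1.23 CPM) and the stromal markers COL1A1 (3.83 to 10.2 CPM) and ACTA2 (0.796 to 2.18 CPM), and 2 were lower, PECAM1 and CDH5. The shares of all tested genes in that comparison are the 30.5% lower and 31.9% higher given above. The part of these markers in the kinesin levels was not tested. Of the other markers, the T cell marker CD3E, the B cell marker MS4A1 and the liver marker ALB stayed at or below 0.164 CPM in every group mean. So did the stromal marker COL3A1, while the stromal marker PDGFRB stood at 0.146 to 0.646 CPM. The endothelial markers PECAM1 and CDH5 were present at 43.7 to 95.4 and 46.7 to 67.9 CPM, and VWF at 1.02 to 2.65 CPM. PRMT5 mRNA did not pass in any comparison (log2 fold changes of -0.05, -0.01 and -0.06, edgeR's quasi-likelihood test).

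Kinesins are motor proteins that use ATP to walk along microtubules or to take them apart at their ends. In a dividing cell, members of this set push the spindle poles apart, carry and align chromosomes, trim microtubule ends, and bundle the central spindle along which the cell is cut into daughters. Their mRNAs are made mainly in G2 and mitosis, under the MuvB complex with its partners MYBL2 and FOXM1, which reads a short promoter element called the cell cycle genes homology region, or CHR. In RNA from whole cultures, a change in the share of cells in G2 and mitosis and a change in mRNA per such cell cannot be told apart. The study reported that PRMT5-inhibited cells gathered slightly in S phase. By its methods that treatment was shorter than the one used for the RNA and was at other doses.

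The promoters are shown first because they are a feature that the genes share and that no count entered. RefSeq promoters (GRCh38.p14) run from 250 bases before to 50 bases after the gene's start, and each of the 10 genes had 1 such window. They were searched for CHR-type elements, spelled TTTGAA or TTTAAA, for the CCAAT box read by NF-Y, and for E2F sites spelled TTCCCGC or TTGGCGC, on both strands. All 10 windows held a CHR-type element, and in all 10 at least 1 lay between 100 bases before and 50 bases after the start. Among all 35116 promoter windows of the table, 24% held a CHR-type element anywhere and 11.2% held it in that stretch near the start. The shares were 24.9% and 11.7% among the 22114 genes that, like these, had 1 window, and 17.0% and 7.3% among the 15975 windows of genes tested here. A match of this kind is a description of letters, not a tested site. The stretches are 30 bases long, 5′ to 3′ along the gene's own strand, with the element in capitals and 12 bases on either side. They lie at KIF11 chr10:92593090-92593119 on the plus strand, KIF15 chr3:44761747-44761776 on the plus strand, CENPE chr4:103198388-103198417 on the minus strand, KIF18A chr11:28108149-28108178 on the minus strand, KIF2C chr1:44739822-44739851 on the plus strand, KIF4A chrX:70290058-70290087 on the plus strand, KIF14 chr1:200620733-200620762 on the minus strand, KIF20A chr5:138179059-138179088 on the plus strand, KIF20B chr10:89701602-89701631 on the plus strand, KIF23 chr15:69414282-69414311 on the plus strand.
KIF11: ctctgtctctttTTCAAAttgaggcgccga
KIF15: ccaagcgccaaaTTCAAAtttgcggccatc
CENPE: ggaaattttaaaTTTAAAggcggggcggcc
KIF18A: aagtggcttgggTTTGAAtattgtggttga
KIF2C: ttgcgcgcgggaTTTAAActgcggcggttt
KIF4A: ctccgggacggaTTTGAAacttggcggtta
KIF14: gcggggcgcccaTTCAAAttgcggccttct
KIF20A: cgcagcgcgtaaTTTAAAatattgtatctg
KIF20B: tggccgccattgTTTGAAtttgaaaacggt
KIF23: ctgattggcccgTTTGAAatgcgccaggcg
TTTAAA reads the same on both strands, and it is the element shown for CENPE, KIF2C and KIF20A. The other 7 carry TTTGAA near the start, which in KIF11, KIF15 and KIF14 lies on the opposite strand and so is printed as TTCAAA. In CENPE and KIF20B a further element of the same letters stands directly beside the one in capitals. In KIF2C the element spans the start itself, from position -3 to 3, and in KIF14 and KIF20B it lies inside the first exon, at 2 and 25 bases after the start. The other 7 elements begin between 62 and 10 bases before it, that of CENPE furthest out and that of KIF18A closest.

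CCAAT boxes were present in 7 of the 10 windows, compared with 34.6% both of all windows and of those of genes tested here. KIF15, CENPE and KIF2C were the 3 without a match. E2F sites were present in 2 of 10, KIF15 and KIF18A, compared with 9.23% of all windows and 13.2% of the windows of genes tested here, and the pair of matches in KIF18A overlap each other on opposite strands. No CHR-type element overlapped a CCAAT box or an E2F site. The 150 bases before the start are given for KIF20A, the gene that fell most in Pt-resistant cells, and for KIF4A, which rose least with the inhibitor, at KIF20A chr5:138178962-138179111 and KIF4A chrX:70289954-70290103 on the plus strand, with the CHR-type element and the CCAAT boxes (ATTGG on this strand) in capitals.
KIF20A: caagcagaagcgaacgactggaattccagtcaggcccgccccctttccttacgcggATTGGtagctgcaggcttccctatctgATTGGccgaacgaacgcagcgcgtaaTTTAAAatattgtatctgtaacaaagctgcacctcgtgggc
KIF4A: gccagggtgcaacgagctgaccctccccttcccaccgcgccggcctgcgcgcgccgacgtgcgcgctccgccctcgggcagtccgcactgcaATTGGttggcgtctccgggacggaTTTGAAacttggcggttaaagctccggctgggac
In KIF20A a CCAAT box begins 94 and another 67 bases before the start, ahead of the CHR-type element at 41 bases. In KIF4A a CCAAT box 58 bases before the start precedes the element at 34 bases.

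**Figure D1:**
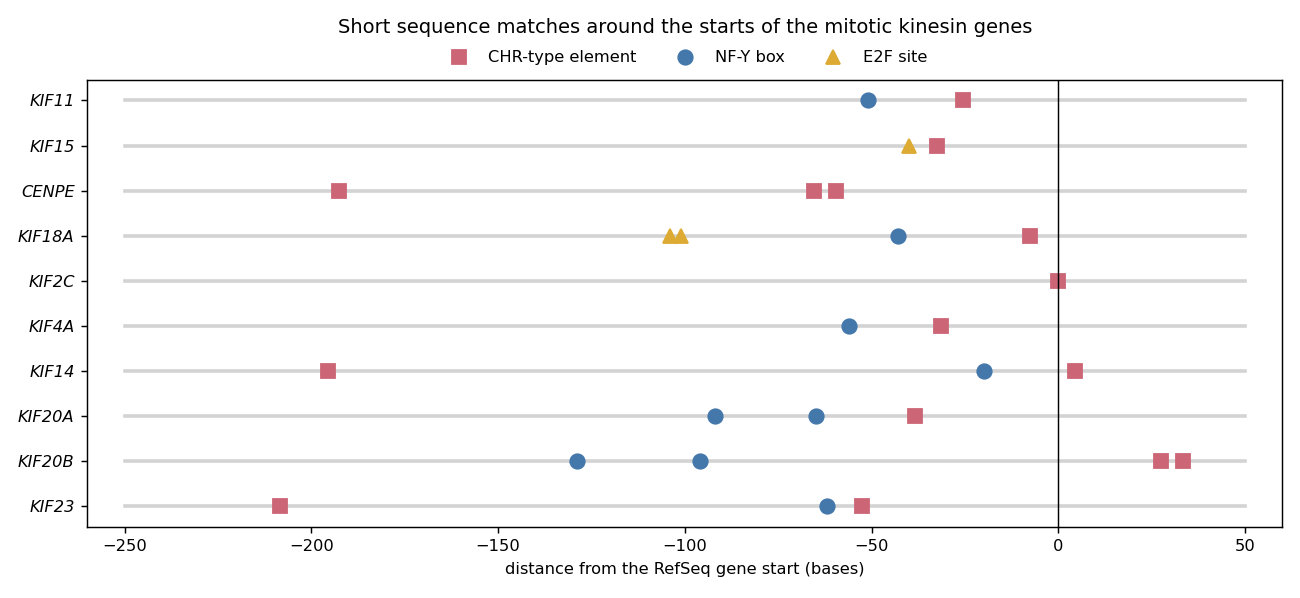
Position of short sequence matches in the promoter windows of the 10 mitotic kinesin genes, as distance from the RefSeq gene start in bases (grey line: the window; squares: CHR-type elements; circles: CCAAT boxes, read by NF-Y; triangles: E2F sites). Every row has a square between 100 bases before and 50 bases after the start, and 7 of 10 rows have a circle.

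The same search was made in related genes. Of 22 other kinesin superfamily genes with a window, which mostly carry vesicles and organelles, 0 held a CHR-type element near the start. Of 6 further kinesins with mitotic roles, 3 did, and of 23 genes for the kinesins' mitotic partners, 19 did. No test was made of these shares, since the lists were chosen for their function.

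How the mRNA of these motors stood in cells that had become resistant was read from Pt-resistant against naive cells under DMSO. In Pt-resistant cells 7 of the 10 were lower and 1, KIF18A, was higher, while KIF2C and CENPE did not pass (edgeR's quasi-likelihood test, threshold 0.05 on p-values adjusted over all genes). By the same rule 29.4% of all tested genes were lower and 29.8% higher. The median log2 fold change of the 10 was -0.38, compared with 0.01 over all genes tested. With the inhibitor all 10 were higher than in Pt-resistant cells under DMSO, where 31.9% of all tested genes were higher and 30.5% lower. The median was then 0.77, again compared with 0.01 over all genes, and the 10 ranged from 0.63 to 1.33. Both comparisons rest on the same Pt-resistant libraries, so a fall in the first and a rise in the second are not independent of each other. Against naive cells, treated Pt-resistant cells were higher for 7 of the 10 and lower for 0, with 32.2% of all genes higher and 31.2% lower. KIF11, KIF15 and KIF20A did not pass there. That comparison differs in line and in treatment and only places the levels.

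**Figure D2:**
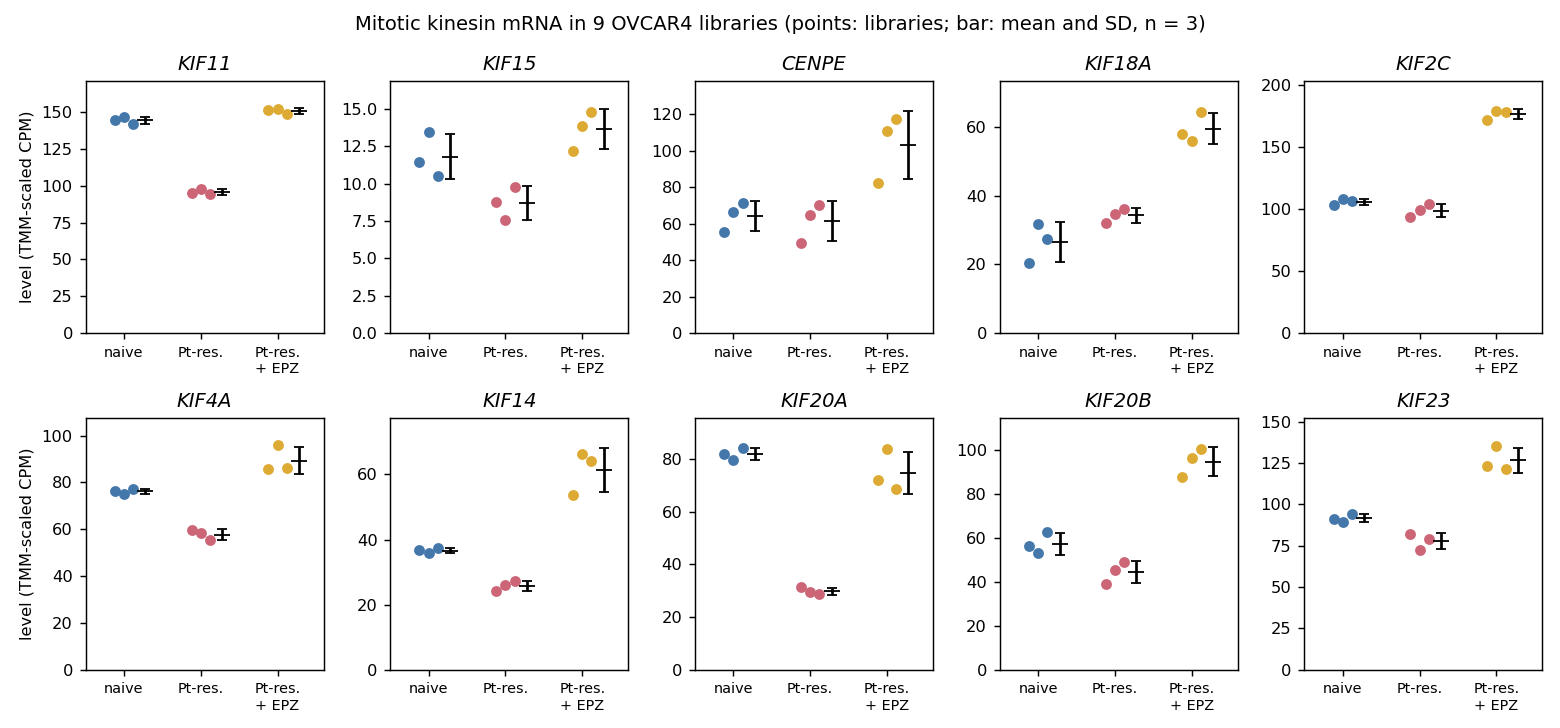
Level of each mitotic kinesin mRNA in TMM-scaled CPM (linear axes from 0) in naive, Pt-resistant and inhibitor-treated Pt-resistant cells (Pt-res. + EPZ). Points are the 3 libraries of a group and bars the mean and SD. All 3 treated libraries lie above all 3 Pt-resistant libraries in every panel, and KIF20A shows the widest gap between naive and Pt-resistant cells.

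KIF11 and KIF15 both work on the bipolar spindle, the first as a tetramer that slides antiparallel microtubules apart and the second as a motor that helps to keep the poles separate once they are. KIF11 (ENSG00000138160) stood at 145, 147 and 142 CPM in the naive libraries, at 95.2, 98.1 and 94.4 in the Pt-resistant and at 152, 152 and 148 in the treated libraries. The Pt-resistant libraries were the low group and overlapped neither other group. KIF11 fell by 0.59 ± 0.07 (SE) in log2 units in Pt-resistant cells (adjusted p = 1.69e-07) and rose by 0.65 ± 0.07 with the inhibitor (adjusted p = 3.13e-08). Treated and naive libraries did not overlap either, but their difference of 0.06 ± 0.07 did not pass (adjusted p = 0.457). KIF15 (ENSG00000163808), the least abundant of the set, stood at 11.5, 13.5 and 10.5 CPM in naive, 8.78, 7.56 and 9.82 in Pt-resistant and 12.2, 13.9 and 14.8 in treated libraries. Its Pt-resistant libraries were below all others, and the naive and treated libraries overlapped. The fall was 0.44 ± 0.13 in log2 units (SE; adjusted p = 0.00699) and the rise with the inhibitor 0.64 ± 0.13 (adjusted p = 0.000162), while treated minus naive cells gave 0.21 ± 0.13 (adjusted p = 0.160).

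CENPE, KIF18A, KIF2C and KIF4A act on chromosomes and microtubule ends. CENPE carries chromosomes along the spindle from the kinetochore to the middle of the cell. Its mRNA (ENSG00000138778) stood at 55.3, 66.3 and 71.1 CPM in naive, 49.4, 65.0 and 70.1 in Pt-resistant and 82.0, 111 and 117 in treated libraries. Library 1 was the lowest in each group, and naive and Pt-resistant libraries interleaved. The difference between Pt-resistant and naive cells was -0.06 ± 0.12 in log2 units (SE; adjusted p = 0.700), and its sign was not fixed, since it was 0.02 without naive replicate 3 and 0.06 without Pt-resistant replicate 1. With the inhibitor CENPE rose by 0.75 ± 0.12 (adjusted p = 1.38e-05), and treated libraries lay above both other groups.

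KIF18A, which damps the movement of chromosomes at the metaphase plate by slowing the plus ends of kinetochore microtubules, was the member that went up in both steps. KIF18A (ENSG00000121621) stood at 20.4, 31.8 and 27.3 CPM in naive, 32.0, 34.6 and 36.2 in Pt-resistant and 58.1, 55.9 and 64.6 in treated libraries. No groups overlapped, but the highest naive library lay only just under the lowest Pt-resistant one. The rise in Pt-resistant cells was 0.38 ± 0.12 in log2 units (SE; adjusted p = 0.00729), and without naive replicate 1, the low library, it was 0.22 and did not pass (adjusted p = 0.0857). With the inhibitor KIF18A rose by a further 0.80 ± 0.11 (adjusted p = 1.29e-06), which placed treated cells 1.17 ± 0.11 above naive cells (adjusted p = 3.88e-09). It was the only member at least 2-fold above naive cells, as were 10.7% of all tested genes.

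KIF2C, also called MCAK, does not walk but takes microtubules apart, and it corrects faulty attachments at the centromere. KIF2C (ENSG00000142945) stood at 103, 108 and 106 CPM in naive, 93.5, 98.9 and 104 in Pt-resistant and 172, 179 and 178 in treated libraries. The highest Pt-resistant library overlapped the naive ones, and treated libraries stood apart above both. The difference of -0.10 ± 0.07 on the log2 scale between Pt-resistant and naive cells did not pass (SE; adjusted p = 0.246). With the inhibitor KIF2C rose by 0.84 ± 0.07 (adjusted p = 8.75e-10) and stood 0.74 ± 0.07 above naive cells (adjusted p = 6.06e-09).

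KIF4A binds chromosome arms and, with PRC1, limits the growth of microtubules in the central spindle. KIF4A (ENSG00000090889) stood at 76.2, 75.0 and 77.3 CPM in naive, 59.7, 58.2 and 55.3 in Pt-resistant and 85.9, 95.8 and 86.3 in treated libraries. The 3 groups did not overlap, with Pt-resistant the lowest and treated the highest. The fall was 0.40 ± 0.08 in log2 units (SE; adjusted p = 0.000101) and the rise with the inhibitor 0.63 ± 0.08 (adjusted p = 1.88e-07), the smallest of the 10. Treated cells were above naive cells by 0.23 ± 0.08 (adjusted p = 0.0116), a call that did not pass without treated replicate 2 (0.18, adjusted p = 0.0734) or with scaling by library size alone (0.17, adjusted p = 0.0596). KIF4A shares 13.7% of the 50-base stretches of its transcripts with other genes, mostly its near-identical copy KIF4B, and reads that map to several places are left out by STAR's counting, so KIF4A may be undercounted. KIF4B itself had 5, 8 and 3 counts over the naive, Pt-resistant and treated groups. The other 9 members share at most 0.416%.

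KIF14, KIF20A, KIF20B and KIF23 work at the central spindle and the midbody, where the daughter cells separate. They include the 3 members that rose at least 2-fold with the inhibitor, namely KIF20A, KIF14 and KIF20B, where 11.4% of all tested genes did so. KIF20A, also called MKLP2, brings the chromosomal passenger complex from the chromosomes to the central spindle. KIF20A (ENSG00000112984) stood at 81.9, 79.6 and 84.2 CPM in naive, 31.3, 29.3 and 28.8 in Pt-resistant and 72.0, 83.7 and 68.6 in treated libraries. Pt-resistant libraries were far below both other groups, and the highest treated library lay among the naive ones. KIF20A fell by 1.46 ± 0.09 in log2 units (SE; adjusted p = 1.16e-12), the only member to fall at least 2-fold, where 9.13% of all tested genes fell so and 6.73% rose so. It rose by 1.33 ± 0.09 with the inhibitor (adjusted p = 5.99e-12), the largest rise of the 10. Treated minus naive cells gave -0.13 ± 0.08 and did not pass (adjusted p = 0.168). That difference passed without treated replicate 2 (-0.22, adjusted p = 0.0354) and with scaling by library size alone (-0.19, adjusted p = 0.0475).

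KIF14 recruits citron kinase, the product of CIT, to the midbody. KIF14 (ENSG00000118193) stood at 36.8, 35.7 and 37.3 CPM in naive, 24.2, 26 and 27.1 in Pt-resistant and 53.7, 66.3 and 64.2 in treated libraries. The groups did not overlap, with Pt-resistant the lowest and treated the highest. It fell by 0.51 ± 0.09 in log2 units (SE; adjusted p = 6.01e-05) and rose by 1.25 ± 0.09 with the inhibitor (adjusted p = 4.22e-11), to 0.75 ± 0.09 above naive cells (adjusted p = 1.34e-07).

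KIF20B, also called MPP1, is needed for the completion of cytokinesis. KIF20B (ENSG00000138182) stood at 56.0, 52.9 and 62.6 CPM in naive, 38.8, 45.4 and 48.8 in Pt-resistant and 87.5, 95.9 and 100.1 in treated libraries, again in 3 groups that did not overlap. It fell by 0.36 ± 0.09 in log2 units (SE; adjusted p = 0.00167) and rose by 1.09 ± 0.09 with the inhibitor (adjusted p = 4.52e-10), to 0.72 ± 0.09 above naive cells (adjusted p = 2.48e-07).

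KIF23, also called MKLP1, forms the centralspindlin complex with RACGAP1. KIF23 (ENSG00000137807) stood at 91.4, 89.6 and 94.4 CPM in naive, 82.0, 72.6 and 79.2 in Pt-resistant and 123, 135 and 122 in treated libraries. Pt-resistant libraries were lowest and treated libraries highest, with no overlap. The fall of 0.24 ± 0.08 in log2 units (SE; adjusted p = 0.0115) was the smallest called in that comparison, and without Pt-resistant replicate 2 the difference of -0.19 did not pass (adjusted p = 0.0645). The rise with the inhibitor was 0.70 ± 0.08 (adjusted p = 3.70e-08), and treated cells stood 0.47 ± 0.08 above naive cells (adjusted p = 1.33e-05).

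**Figure D3:**
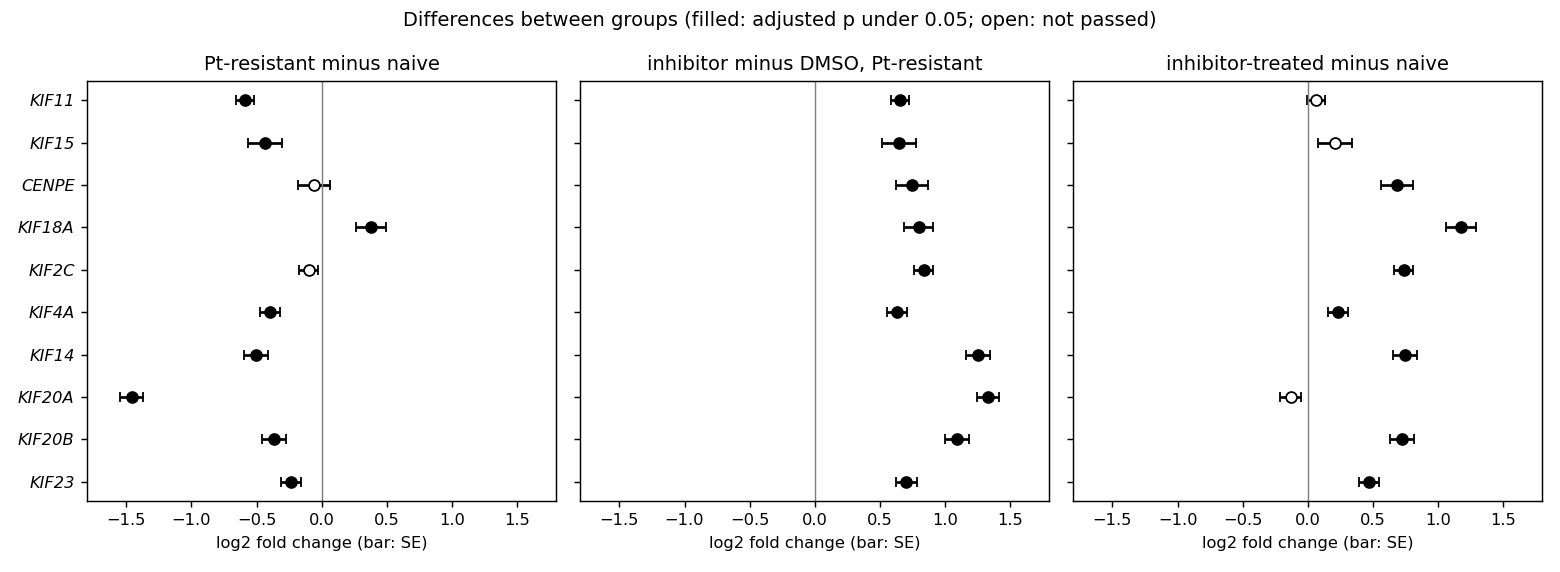
Log2 fold change of each mitotic kinesin in the 3 comparisons, with its SE (edgeR's quasi-likelihood fit; filled points: adjusted p under 0.05 over all genes tested; open points: not passed). In the middle panel every point lies to the right of 0, from 0.63 for KIF4A to 1.33 for KIF20A, and in the left panel KIF20A lies at -1.46 and KIF18A alone to the right of 0.

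Read across the 3 comparisons, 4 genes were lower in Pt-resistant cells and higher with the inhibitor than both other groups (KIF4A, KIF14, KIF20B and KIF23). A further 3 were lower in Pt-resistant cells, and treated cells were not called different from naive ones (KIF11, KIF15 and KIF20A). KIF2C and CENPE passed only where the treated cells were compared, and KIF18A was higher at each step. The groups did not overlap for 7 members on the lower side and 1 on the higher side in Pt-resistant against naive cells, where 31.3% and 31.2% of all tested genes were so separated. They did not overlap for 10 on the higher side with the inhibitor and for 8 in treated against naive cells, where 33.7% and 33.6% of all genes were.

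Summed over the 10 genes, the level was 677, 699 and 713 CPM in naive libraries, 515, 536 and 553 in Pt-resistant and 898, 989 and 964 in treated libraries. The means were 696 ± 18, 535 ± 19 and 950.2 ± 47 CPM (SD, n = 3), with no overlap between groups. The make-up of that sum also differed between groups. A share depends on the other members too, so it can move against the gene's own level. KIF2C gained share in Pt-resistant cells although its level did not rise (log2 fold change of -0.10, not passed). KIF11 lost share with the inhibitor although its level rose by 0.65 in log2 units. KIF20A held 11.8% ± 0.35 of it in naive cells, 5.58% ± 0.44 in Pt-resistant and 7.87% ± 0.68 in treated cells. KIF18A held 3.80% ± 0.77, 6.41% ± 0.16 and 6.28% ± 0.55 in the same order. KIF11 held 20.7% ± 0.76, 18% ± 0.77 and 15.9% ± 0.85, and KIF2C 15.2% ± 0.27, 18.4% ± 0.28 and 18.6% ± 0.51. The shares of KIF20A separated all 3 groups with no overlap, as did those of KIF11 and KIF14. KIF14 held 5.26% ± 0.16, 4.82% ± 0.11 and 6.45% ± 0.41. The shares of KIF18A and KIF2C separated naive libraries from the other 6, which overlapped. The share of KIF4A was lower, and that of KIF20B higher, in treated libraries than in the other 6, which overlapped. For KIF15, KIF23 and CENPE no group stood apart from both others. With 3 libraries against 3 an exact permutation test of a share could not go below p = 0.1, so none was made.

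**Figure D4:**
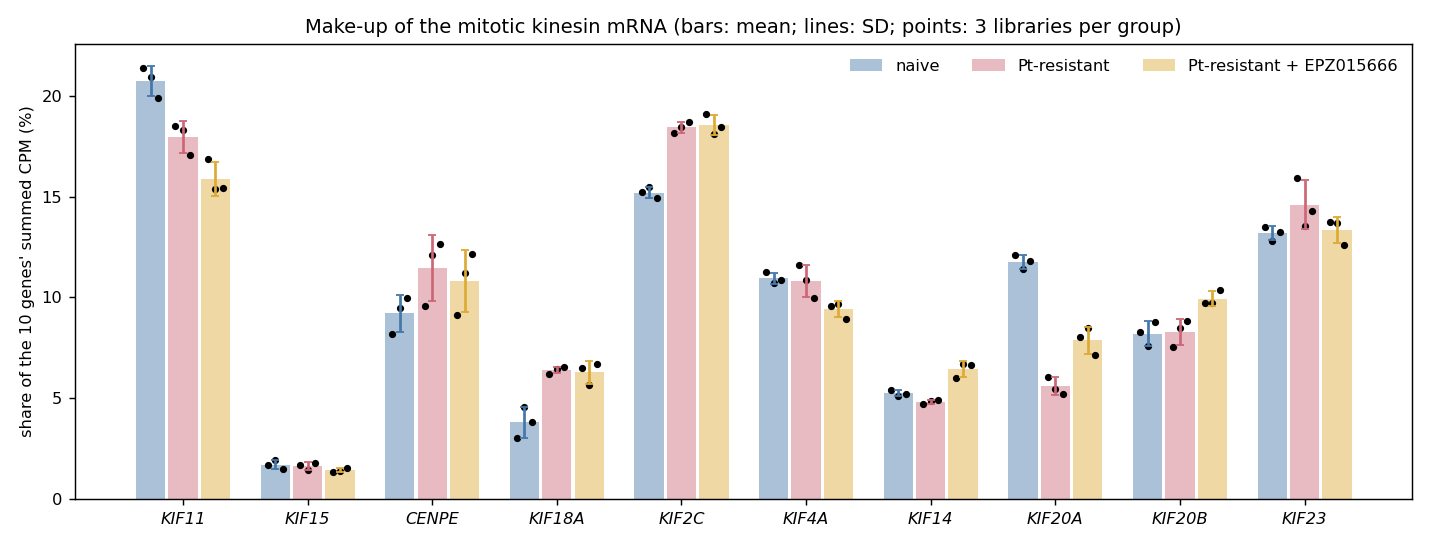
Share of each gene in the summed CPM of the 10 mitotic kinesins, in percent (bars from 0: mean of 3 libraries; lines: SD; points: libraries), for naive, Pt-resistant and EPZ015666-treated Pt-resistant cells. KIF20A drops from 11.8% to 5.58% between naive and Pt-resistant cells, and KIF18A goes from 3.80% to 6.41%.

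Between genes, levels were compared per length, as TPM, counts divided by the merged exon length of a gene and scaled to the same total in every library. In naive cells KIF11 and KIF2C led at 96.6 ± 5.1 and 94.3 ± 3.0 TPM (SD, n = 3), with overlapping libraries. KIF20A followed at 67.2 ± 2.5, KIF4A at 54.6 ± 2.1, KIF23 at 45.4 ± 1.5 and KIF20B at 27.1 ± 1.8 TPM, each apart from its neighbours. CENPE at 22.0 ± 1.9, KIF18A at 18.4 ± 3.6 and KIF14 at 16.3 ± 0.67 TPM did not separate from their neighbours among themselves, and KIF15 was lowest at 7.28 ± 1.0 TPM. In Pt-resistant cells KIF2C stood first alone at 88.8 ± 4.8 TPM, ahead of KIF11 at 64.8 ± 0.33. KIF20A had moved down to the fifth place at 24.7 ± 1.2 TPM, where it overlapped KIF18A at 24.1 ± 1.5. In treated cells KIF2C again led, at 144 ± 5.8 TPM, and KIF4A, KIF23 and KIF20A overlapped in the next group, at 58.9 ± 3.5, 57.6 ± 3.0 and 56.4 ± 5.4 TPM, after KIF11 at 92.7 ± 1.1. KIF15 was last in all 3 groups. The order depends on the length used. Over the longest coding transcript KIF2C was first in all 3 groups, and KIF23, whose merged exons are 6576 bases and longest coding transcript 3723 bases, stood in the fourth place in naive cells and in the second in the other groups.

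The 6 other kinesins with roles in mitosis were read from a list. KIF2B had no count in any library and KIF4B was too low to test, which left 4. Of these, 3 fell in Pt-resistant cells and 4 rose with the inhibitor. Of all tested genes, 29.4% were lower in the first comparison and 31.9% higher in the second. KIF18B, which shortens astral microtubules, went from 18.1 ± 1.4 to 11.2 ± 0.82 and then 34.0 ± 6.0 CPM (SD, n = 3). It fell by 0.69 ± 0.12 on the log2 scale and then rose by 1.61 ± 0.12 with the inhibitor (SE), more than any of the 10. KIFC1, which clusters centrosomes, fell by 0.42 ± 0.13 and rose by 0.71 ± 0.13, and KIF22, the chromosome arm motor, fell by 0.53 ± 0.09 and rose by 0.21 ± 0.09 (adjusted p = 0.0333). That rise of KIF22 did not pass with scaling by library size alone (0.18, adjusted p = 0.0795), nor without Pt-resistant replicate 2 (0.16) or 3 (0.22) or treated replicate 1 (0.20) or 2 (0.17), with adjusted p of 0.0704 to 0.149. The fall of KIFC1 did not pass without naive replicate 1 (-0.33, adjusted p = 0.0525). KIF22 remained below naive cells after treatment, at -0.32 ± 0.09 (adjusted p = 0.00225). KIF2A, the spindle pole relative of KIF2C, changed by -0.05 ± 0.07 in Pt-resistant cells and did not pass there (adjusted p = 0.609), and it rose by 0.29 ± 0.07 with the inhibitor.

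Among 28 tested genes of the remaining kinesin superfamily and kinesin light chains, 6 were higher and 12 lower in Pt-resistant cells. With the inhibitor 10 were higher and 10 lower. Of all tested genes, 29.8% were higher and 29.4% lower in the first comparison, and 31.9% and 30.5% in the second. The medians of the 28 were -0.10 and -0.11. KIF1A, a neuronal vesicle motor, fell from 38.9 ± 2.5 to 1.85 ± 0.50 CPM in Pt-resistant cells, a log2 fold change of -4.40 ± 0.15 (adjusted p = 2.96e-17), and stood at 2.70 ± 0.27 CPM with the inhibitor. KIF5B, the ubiquitous conventional kinesin, rose from 610 ± 23 to 825 ± 30 CPM and stood at 570.1 ± 21 CPM with the inhibitor, a direction opposite to most of the mitotic set in both comparisons. With the inhibitor the largest rises were in KIF19, a motor of cilia, at 2.72 ± 0.23 and 6.03 ± 0.77 CPM in treated cells, and in KIF3C, at 1.26 ± 0.10. The largest fall was in KIFC2, at -1.04 ± 0.10.

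Partners of the mitotic kinesins, 28 genes that recruit, regulate or work with them, were lower in 17 cases and higher in 4 in Pt-resistant cells, and higher in 25 and lower in 0 with the inhibitor. Of all tested genes, 29.4% were lower and 29.8% higher in the first comparison, and 31.9% higher and 30.5% lower in the second. The medians of the partners were -0.31 and 0.83. CIT, the kinase that KIF14 recruits, fell by 1.49 ± 0.12 on the log2 scale and rose by 1.5 ± 0.12 with the inhibitor (SE). INCENP, the scaffold of the passenger complex that KIF20A moves, fell by 0.96 ± 0.11 and rose by 1.5 ± 0.10, and AURKB, the kinase of that complex, fell by 0.74 ± 0.10 and rose by 1.00 ± 0.10. TPX2, which targets KIF11 and KIF15 to the spindle, fell by 0.57 ± 0.09 and rose by 0.91 ± 0.09. The outer kinetochore genes NDC80 and NUF2 were among the 4 that rose in Pt-resistant cells, by 0.22 ± 0.09 and 0.25 ± 0.10, with NEK6 at 0.86 ± 0.08 and HMMR at 0.27 ± 0.09. Leaving out naive replicate 1, or either of Pt-resistant replicates 2 and 3, left 1 of these 4 calls. RACGAP1, the partner of KIF23, did not pass in Pt-resistant cells (0.06 ± 0.07, adjusted p = 0.474) and rose by 0.46 ± 0.07 with the inhibitor. NEK6, NEK7 and HMMR were the 3 not called with the inhibitor. PRC1 was counted at only 2.99 to 5.59 CPM as group means, and 57.6% of its exon bases overlap another gene on the same strand, so its level is uncertain.

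The dynein list held subunits of dynein and dynactin, whose complex walks the other way along microtubules. It also held genes that recruit or regulate that complex, such as NDE1 and ZW10. Of 15 tested, 5 were higher and 4 lower in Pt-resistant cells, where 29.8% of all tested genes were higher and 29.4% lower. With the inhibitor 4 were higher and 5 lower, where 31.9% of all tested genes were higher and 30.5% lower. The medians were 0.01 and 0.02. In Pt-resistant cells the largest fall of the list was in KNTC1 (-0.96 ± 0.11, SE) and the largest rise in DYNC1LI1 (0.68 ± 0.08). KNTC1 did not pass with the inhibitor (0.02 ± 0.11). The 4 higher with the inhibitor were ZWILCH (0.94), NDE1 (0.53), SPDL1 (0.44) and ZW10 (0.26), none of them a subunit. The 5 lower were the subunits DYNC1LI1 (-0.38), DCTN1 (-0.25) and DYNC1LI2 (-0.19), with NDEL1 (-0.31) and PAFAH1B1 (-0.23). The 5 lower with the inhibitor were 3 without Pt-resistant replicate 1, treated replicate 1 or treated replicate 3, and the 4 higher were 2 without Pt-resistant replicate 3. Of 16 regulators that act through CHR, NF-Y and E2F elements, 3 were higher and 7 lower in Pt-resistant cells and 9 were higher and 5 lower with the inhibitor. MYBL2 went from 258 ± 25 to 110.0 ± 4.9 and then 312 ± 4.8 CPM (SD, n = 3), and FOXM1 from 51.8 ± 2.3 to 29.3 ± 3.4 and then 49.4 ± 2.7 CPM. The repressor-type factor E2F5 fell by 1.15 ± 0.09 on the log2 scale with the inhibitor. MKI67, the Ki-67 proliferation marker, had log2 fold changes of -0.75 ± 0.13 in Pt-resistant cells and 1.11 ± 0.13 with the inhibitor. MYBL2, FOXM1 and MKI67 were lower in Pt-resistant cells and higher with the inhibitor, while the 5 regulators lower with the inhibitor were E2F5, NFYC (-0.54), RBL2 (-0.38), NFYB (-0.31) and E2F4 (-0.28). What part any of them had in the kinesin levels was not tested.

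**Figure D5:**
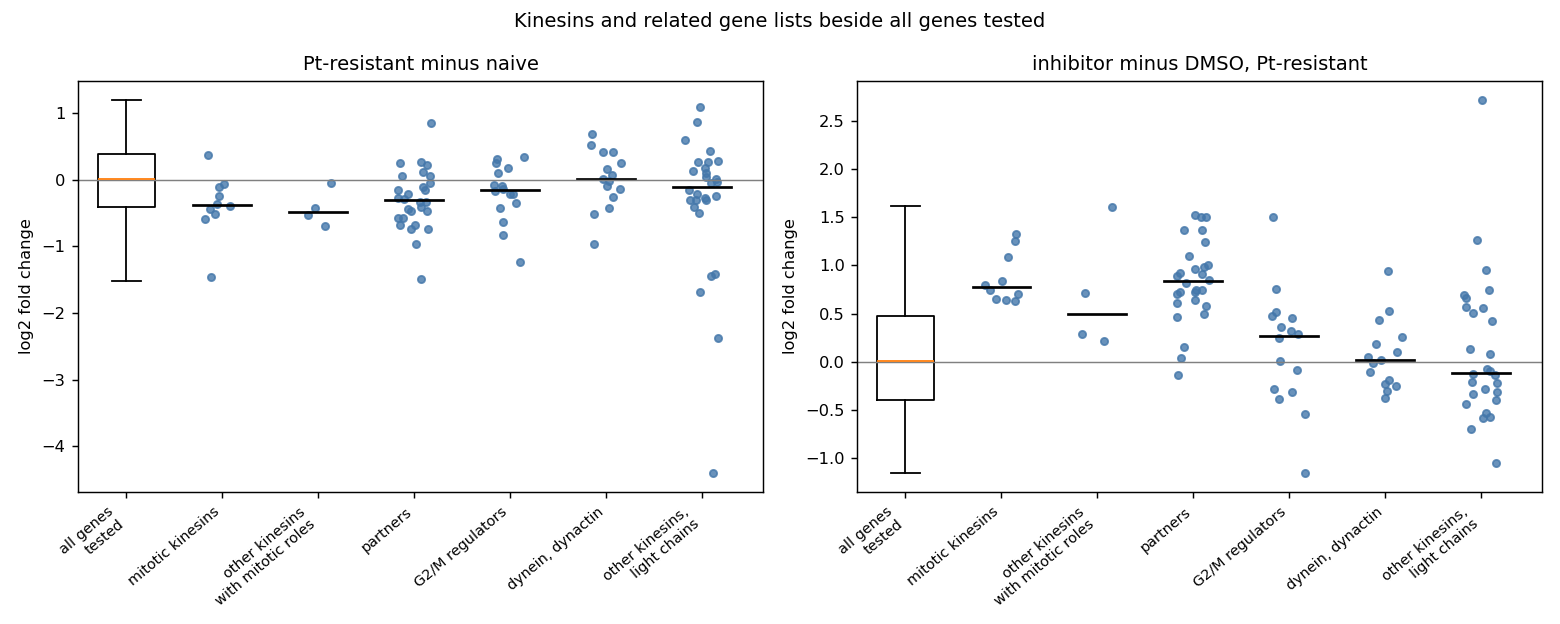
Log2 fold changes of the kinesins and of related gene lists (points: genes; black lines: list medians) beside all 14630 genes tested (box: quartiles and median; whiskers: 5th to 95th percentile), for Pt-resistant minus naive cells and for inhibitor minus DMSO in Pt-resistant cells. With the inhibitor the medians of the mitotic kinesins and their partners stand at 0.77 and 0.83. Those of the dynein list and other kinesins stand at 0.02 and -0.11.

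Tested genes outside the set were also divided by their promoters. Of 1050 genes with a CHR-type element near the start, 43% were higher with the inhibitor and 24.5% lower. Of 9917 genes without it, 31.1% were higher and 32.5% lower. In Pt-resistant against naive cells the shares were 31% higher and 32.6% lower with the element, and 31.4% and 29.6% without it. All 10 mitotic kinesins hold the element in either of its spellings, among them KIF20A, which fell 2.75-fold in Pt-resistant cells, and KIF18A, which rose 1.3-fold. The spelling near the start differs between KIF20A and KIF18A, and only KIF18A of this pair has E2F matches. Whether the element or these differences had a part in the levels of KIF20A and KIF18A was not tested.

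Across the 9 libraries, the log2 CPM of KIF14 followed the mean of the other 9 members most closely (r = 0.99), and KIF18A and KIF20A least (r = 0.62 and 0.71). Outside the set, the 5 genes most like the mean of the 10 were GLIPR1, KNL1, MYRF, IL4R and PIK3AP1, with r of 0.9944, 0.9930, 0.9923, 0.9914 and 0.9900 among 10595 genes of at least 5 CPM. These correlations describe 9 points in 3 groups that share their libraries, and any gene that is lowest in Pt-resistant and highest in treated cells scores high. KNL1, the kinetochore scaffold that binds the NDC80 complex, stood at 42.1, 29.3 and 69.7 CPM as group means in naive, Pt-resistant and treated cells. The corresponding means of GLIPR1 were 15.9, 7.27 and 37.7 CPM.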

How the data were processed

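RNA was sequenced from 9 OVCAR4 libraries made with a directional kit. By the study's methods and the submitters' processing notes, the authors used FastQC for quality, STAR with its gene counts option for alignment, and DESeq2. The deposited values are raw counts per gene, whole numbers that were not normalised. For the RNA reads the genome build, the annotation and the strand column taken are details not given in the sources used here. Such counts omit multimapping reads and those shared by overlapping genes. By GENCODE 29 no exon base of the 10 genes overlaps another gene on the same strand, and up to 5.05% (KIF20A) overlap a gene on the opposite strand.

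Of 61487 identifiers, 61369 matched a symbol table and 105 more were named from GENCODE 29. In R 4.3.3, edgeR 4.0.16 was run after filterByExpr with a minimum count of 10, so that 14630 genes with 99.88% of counts remained. TMM scaling was used, and the quasi-likelihood model covered all 9 libraries and had no covariates. P-values were adjusted by Benjamini-Hochberg over all 14630 genes, with a threshold of 0.05, and an SE is the log2 fold change divided by the root of F. The biological coefficient of variation was 7.66%. CPM are counts relative to TMM-scaled totals, and TPM use GENCODE 29 exon lengths. Totals of 14320929 to 19114811 counts set the precision. The fit was tested on simulated data, in which far fewer genes changed than were called here and only in the Pt-resistant group. No library pair of a group agreed within counting noise (chi-square over its degrees of freedom 5.41 to 11.9).

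The members and gene lists were chosen with earlier results of these data known. All 10 members are named. Of the other lists, some genes are named for a large change and others for their role. The named genes are therefore not always the extremes of their list. For instance ANLN, which rose by 1.52 with the inhibitor, and KIF26B, which rose by 1.10 in Pt-resistant cells, are not described above. The 5 genes most like the set are those with the highest Pearson correlation with the members' mean standardised log2 CPM, among genes with a mean of at least 5 CPM. Promoter windows are RefSeq's, of GRCh38.p14. Alternatives were RLE or library size scaling, DESeq2 1.42.0, limma-voom (limma 3.58.1), other filters, a block for the replicate number, fits on the compared groups alone, a 2-fold minimum, and each library left out in turn.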

Additional observations from a re-analysis of the deposited data

How the results depend on the processing

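Of the member counts, the requirement of at least 2-fold moved those lower and higher in Pt-resistant against naive cells from 7 to 1 and from 1 to 0, that higher with the inhibitor from 10 to 3 and that higher in treated against naive cells from 7 to 1. With scaling by library size alone, 1 member, KIF20A, was lower in treated against naive cells in place of 0. Leaving out each library in turn gave 6 to 7 members lower and 0 to 1 higher in Pt-resistant against naive cells, 10 to 10 higher and 0 to 0 lower with the inhibitor, and 6 to 7 higher and 0 to 1 lower in treated against naive cells. The libraries that moved these counts were naive replicate 1 (KIF18A), Pt-resistant replicate 2 (KIF23) and treated replicate 2 (KIF4A and KIF20A). CENPE in Pt-resistant against naive cells ranged from -0.17 to 0.065 over the left-out libraries and changed sign, to 0.018 without naive replicate 3 and to 0.065 without Pt-resistant replicate 1, and passed in none of these. RLE scaling, DESeq2, limma-voom, other filters and fits on only the groups compared changed no member's call. RLE scaling shifted the median of all genes by at most 0.01 and library size alone by up to 0.06 on the log2 scale, downward. At 2-fold or more, all genes lower and higher were 1335 and 985 (from 4294 and 4357) in Pt-resistant against naive cells, 952 and 1673 (from 4467 and 4669) with the inhibitor and 1339 and 1564 (from 4566 and 4710) in treated against naive cells, and partners higher with the inhibitor 8 (from 25) and partners lower in Pt-resistant cells 1 (from 17). The 4 partners higher in Pt-resistant cells were 2 in a fit on only the groups compared.

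Deviations from the group mean correlated at -0.076 to 0.0995 between libraries with the same replicate number. Between libraries with different numbers they correlated at -0.112 to 0.0785, and not every library correlated best with its own number. With 3 libraries in a group this cannot exclude a batch shared by replicate number. The summed level of the 10 genes was lowest in replicate 1 of the naive, Pt-resistant and treated groups, at 677, 515 and 898 CPM. With the replicate number as a block, 7 members were lower and 1 higher in Pt-resistant against naive cells, 10 were higher with the inhibitor, and 7 were higher and 0 lower in treated against naive cells, and no member's call changed.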
